A study of Mus musculus with 6 samples.

Results

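ADAM proteases (a disintegrin and metalloprotease) were described in primary mouse hepatic stellate cells exposed to forskolin. The set holds 8 genes, Adam8, Adam9, Adam10, Adam12, Adam15, Adam17, Adam19 and Adam33, out of 24940 gene rows in the count table. Members were found by gene symbol, and the family was chosen from the measured log2 changes of its genes between forskolin and DMSO, so those differences are given as a description and support nothing further. The forskolin group holds 3 libraries of cells given 5 µM forskolin for 3 h, and the DMSO group holds 3 libraries of cells given the same volume of that solvent. Forskolin activates adenylyl cyclase and so raises cAMP inside the cell. In both groups the cells were wild type, came from female C57BL/6JBomTac mice and had been in culture for 2 days after isolation. Culture on plastic itself activates stellate cells, so the DMSO cells are cultured cells and not resting cells of the liver. No age of the mice is given, and no source used here says whether replicates A, B and C came from separate isolations. P-values may therefore reflect technical spread alone.

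Many ADAM proteins are membrane-anchored proteases with a zinc-dependent catalytic domain, a disintegrin domain and a prodomain that furin-type convertases often remove. They cut the outer parts of other membrane proteins close to the cell surface, a step called ectodomain shedding, and thereby release growth factors and cytokines or start the cleavage of Notch receptors. In liver fibrosis they are known for releasing ligands and receptors at the surface of stellate cells, macrophages and hepatocytes.

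The stretch that makes these proteins proteases is the zinc-binding site, in which 3 histidines hold the catalytic zinc. It is shown for all 8 members because it is the catalytic feature they share. Members were found by gene symbol and not by these bases. Each line gives the 33 coding bases of the site, 5′ to 3′ on the coding strand, with the codons of the 3 histidines in capitals. The bases come from GENCODE M21 transcripts (GRCm38) matched through the RefSeq identifiers of the table.
Adam8: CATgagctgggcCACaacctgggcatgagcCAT
Adam9: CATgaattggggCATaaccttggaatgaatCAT
Adam10: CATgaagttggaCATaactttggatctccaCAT
Adam12: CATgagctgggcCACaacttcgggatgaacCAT
Adam15: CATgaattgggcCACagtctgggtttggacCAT
Adam17: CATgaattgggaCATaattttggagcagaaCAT
Adam19: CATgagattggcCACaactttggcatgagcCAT
Adam33: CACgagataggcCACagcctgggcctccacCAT
Of the 33 bases, 16 were identical in all 8 genes. Adam8 matched both Adam12 and Adam19 at 29 bases, Adam10 matched Adam17 at 26, and the least alike pair, Adam17 and Adam33, shared 17. The site lay wholly in exon 11 of the matched transcript in 6 members, while that of Adam17 lay in exon 12 and that of Adam10 was split between exons 9 and 10. In Adam19 it occupied chr11:46125050-46125082 on the plus strand. The table also has 25 other ADAM rows, and 12 of them encoded the site in their matched transcript.

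Column totals of the table ran from 2770628.5 to 10607997 in the forskolin libraries and from 3025989.5 to 9454832.5 in the DMSO libraries, with replicate C the shallowest of each group. A floor of 3 counts equals 0.278 to 1.16 CPM (counts per 1000000 of the scaled library size) in forskolin libraries and 0.303 to 1.01 CPM in DMSO libraries, for counting error only. The 12 stellate cell markers were all detected, with summed levels of 1727 to 1945 CPM in forskolin libraries and 1665 to 1772 CPM in DMSO libraries. The 12 macrophage markers summed to 14.2 to 18.6 CPM in forskolin libraries and 18.7 to 23.8 CPM in DMSO libraries, with Tyrobp and Marco at 0 counts in all 6. Of 12233 genes that passed the filter on low counts, 342 (2.80%) passed an adjusted p of 0.05 in edgeR's quasi-likelihood test with Benjamini-Hochberg adjustment. Among the 12 stellate cell markers, all tested, 2 passed as higher with forskolin (Hand2 and Hgf), against 2.22% of all tested genes, and 0 as lower. The groups did not overlap for 6 of these 12, against 20.2% of all tested genes. Libraries of bulk RNA cannot tell fewer cells of a type apart from less RNA per cell.

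Of the 8 members, 7 passed the filter, and Adam33 had no count in any library. Adam19 was the 1 member called lower, at 30.0% of its DMSO level, where 0.572% of all tested genes were called lower. No member was called higher, by edgeR, DESeq2 or limma-voom, where 2.22% of all tested genes were called higher by edgeR, and 2 members, Adam19 and Adam15, had an unadjusted p under 0.05, against 12.1% of all tested genes (1477). The values of the groups did not overlap for the same 2 members, against 20.2% of all tested genes. The median log2 change of the 7 was -0.11, and that of all tested genes was 0.00496. Because the contrast chose the family, nothing is read from these counts.

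Adam19 (meltrin beta) is a sheddase whose known substrates include neuregulins, and in mice it is needed for heart development. Its row covers chr11:46055984-46147347 on the plus strand (mm10), with 6380 bases of exon. Adam19 had 51.8, 65.5 and 31.4 CPM in forskolin libraries A, B and C, against 218, 190.0 and 98.1 CPM in DMSO libraries A, B and C. Every forskolin library lay below every DMSO library, and the C library was the lowest of its group in both. The means were 49.6 ± 17.1 CPM with forskolin and 169 ± 62.6 CPM with DMSO (SD, n = 3 each), a log2 change of -1.74 ± 0.30 (SE; edgeR adjusted p = 0.0103). Between libraries of the same letter the log2 difference was -2.05 for A, -1.52 for B and -1.61 for C. Without both C libraries the log2 change was -1.80. Leaving out 1 library of 6 kept the change between -1.99 and -1.52, but the adjusted p missed the threshold with forskolin A left out (0.0582), with DMSO A left out (0.0628) and with DMSO B left out (0.0692). The row overlaps that of Mir8100, which had 3 counts in DMSO A and none in the other libraries.

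**Figure D1:**
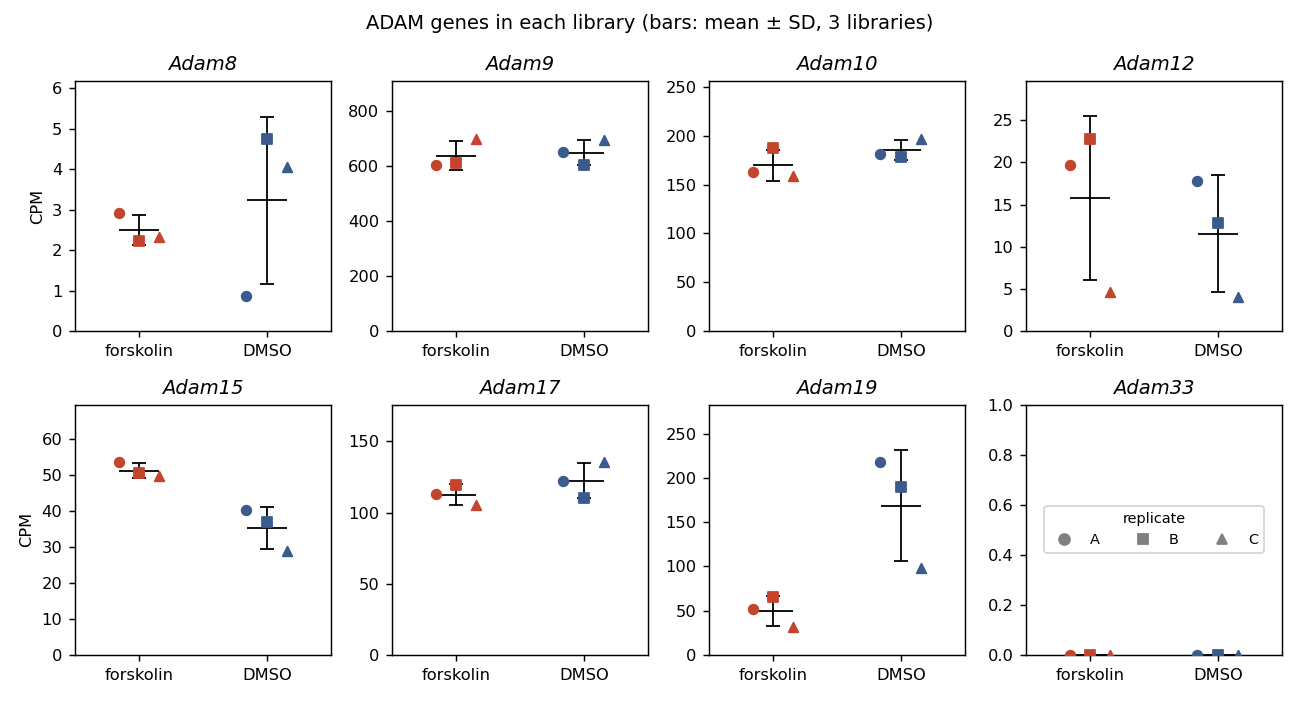
CPM of each of the 8 ADAM genes (vertical axes, 1 scale per gene, starting at 0) in forskolin libraries and DMSO libraries. Points are libraries, with the shape giving the replicate letter, and bars are the mean ± SD of 3 libraries. Adam19 lies at 31.4 to 65.5 CPM with forskolin and 98.1 to 218 CPM with DMSO, and Adam33 is at 0 throughout.

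The promoter stretch at the start of the Adam19 row is shown because this member had the largest log2 change of the 7. RefSeq (GRCm38.p6) places it at chr11:46055734-46056033 on the plus strand, from 250 bases before to 50 bases after the start. Capitals mark matches to the motifs searched.
Adam19 promoter: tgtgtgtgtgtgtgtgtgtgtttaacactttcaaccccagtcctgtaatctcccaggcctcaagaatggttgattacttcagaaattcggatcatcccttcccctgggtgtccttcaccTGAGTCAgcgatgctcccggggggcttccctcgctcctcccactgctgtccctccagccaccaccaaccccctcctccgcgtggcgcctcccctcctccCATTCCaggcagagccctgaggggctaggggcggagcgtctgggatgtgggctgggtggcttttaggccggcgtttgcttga
Motifs were searched on both strands. They were the cAMP response element TGACGTCA, its core TGACG (which the full element contains), the AP-1 motif TGANTCA and the TEAD motif GGAATG. Counting the start base as 0, the stretch held 1 AP-1 match at position -131 and 1 TEAD match on the minus strand at -32, which reads CATTCC on the printed strand. Among 32851 RefSeq promoters of the same length, 7.81% held the AP-1 motif, 14.7% the TEAD motif, 20.8% the core and 1.79% the full response element. Neither the full response element nor its core is among the letters of this window. RefSeq also lists Adam19 starts at chr11:46054502 and chr11:46127904, and the promoter stretches at these starts held no match to any of the motifs. Promoters of 5 members were in the RefSeq table (Adam8, Adam10, Adam15, Adam17 and Adam19), in 7 entries. The full element matched in none of them, and the core matched in 1, that of Adam10 at -67. These matches describe letters and are not evidence of binding.

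Adam15 (metargidin) carries an integrin-binding disintegrin domain as well as the zinc site. The row of Adam15 covers chr3:89339640-89350028 on the minus strand. It had 53.4, 50.4 and 49.6 CPM in forskolin libraries A, B and C, against 40.2, 36.9 and 28.7 CPM in DMSO libraries A, B and C. Every forskolin library was above every DMSO library, and the DMSO values were the more spread. Means were 51.2 ± 1.999 CPM with forskolin and 35.3 ± 5.88 CPM with DMSO (SD, n = 3 each). The log2 change was 0.53 ± 0.17 (SE), which did not pass the threshold after adjustment over all genes (edgeR adjusted p = 0.208; 0.0746 to 0.578 over the alternatives). It was positive in every alternative, between 0.41 and 0.63.

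Adam10 and Adam17 are the sheddases with the best known substrates. Adam10 makes the first cut of ligand-bound Notch receptors and acts as alpha-secretase on the amyloid precursor protein. Adam17 (TACE) releases TNF and several ligands of the EGF receptor. Adam10 (chr9:70678982-70780229, plus strand) had 162, 188 and 159 CPM in forskolin libraries A, B and C, against 181, 178 and 197 CPM in DMSO libraries A, B and C. Adam17 (chr12:21323509-21373632, minus strand) had 113, 119.6 and 105 CPM in the forskolin libraries in that order, against 122, 110.5 and 135 CPM in the DMSO libraries. For both genes the groups overlapped, and replicate B was the highest library with forskolin and the lowest with DMSO. The log2 change was -0.12 ± 0.11 for Adam10 and -0.11 ± 0.12 for Adam17 (SE), and neither passed the threshold. The row of Adam17 overlaps that of Iah1 on the other strand. How reads were assigned to genes is not given, so reads in the overlap may not have been told apart.

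Adam9 (meltrin gamma) is a widely expressed sheddase whose known substrates include HB-EGF. Adam9 (chr8:24949611-25016922, minus strand) had 603, 613 and 699 CPM in forskolin libraries A, B and C, against 649.5, 605 and 693 CPM in DMSO libraries A, B and C. The groups overlapped, and the C library was the highest of each. Its log2 change of -0.02 ± 0.13 (SE) was the closest to 0 of the 7, and its sign turned when forskolin A (0.02), forskolin B (0.0036) or DMSO C (0.02) was left out.

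Adam12 (meltrin alpha) is known from activated human stellate cells and cuts IGF-binding proteins. The Adam12 row spans chr7:133883199-134225097 on the minus strand. It had 19.8, 22.8 and 4.65 CPM in forskolin libraries A, B and C, against 17.8, 12.8 and 4.06 CPM in DMSO libraries A, B and C. The groups overlapped, and both C libraries were far below the other libraries of their group. On the log2(CPM + 1) scale, C minus the mean of A and B was -1.98 with forskolin and -1.67 with DMSO, outside the central 90% of all tested genes (-1.50 to 0.82 with forskolin, -1.32 to 0.84 with DMSO). Adam19 had -0.87 with forskolin and -1.04 with DMSO on the same measure. The log2 change of Adam12 between the groups, 0.46 ± 0.55 (SE), was smaller than its error.

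Adam8 (CD156) is best known from myeloid cells and osteoclasts. Adam8 (chr7:139978932-139992562, minus strand) had 2.91, 2.23 and 2.33 CPM in forskolin libraries A, B and C, against 0.873, 4.75 and 4.06 CPM in DMSO libraries A, B and C. The forskolin values lay inside the range of the DMSO values. These levels rest on 6 to 28 counts per forskolin library and 6 to 47 per DMSO library, and the log2 change was -0.36 ± 0.78 (SE), turning to 0.09 without DMSO B. Summed macrophage markers, given above, were lower in each forskolin library than in any DMSO library. The gap was narrow, with 18.58 CPM in the highest forskolin library and 18.73 CPM in the lowest DMSO library. Of the 12 markers 2 were tested, and edgeR called none. The part of macrophages in the Adam8 values was not tested. Adam33, a gene of smooth muscle and fibroblasts known from human asthma studies (chr2:131050822-131063814, minus strand), had no counts, which allows up to 1.16 CPM in the shallowest forskolin library and 1.01 CPM in the shallowest DMSO library.

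**Figure D2:**
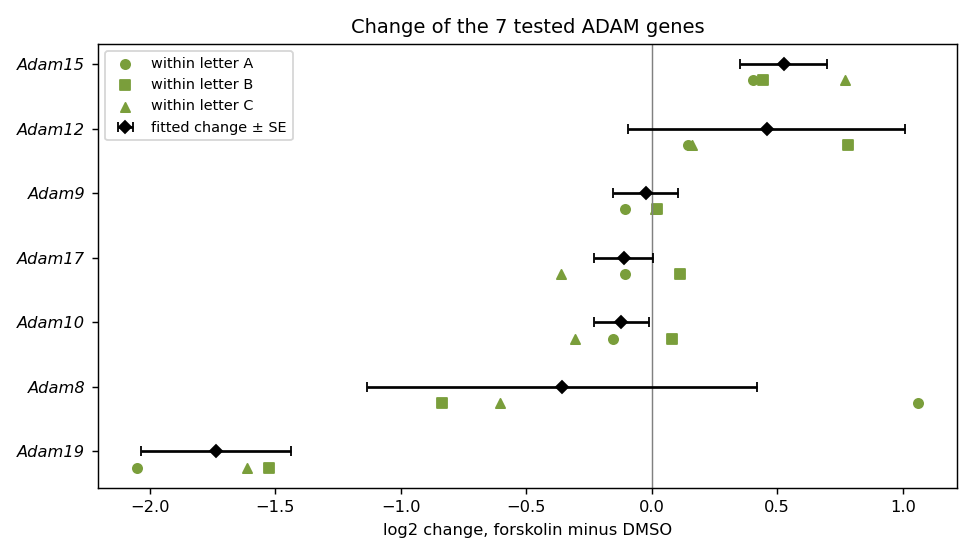
Log2 change, forskolin minus DMSO (horizontal axis), of the 7 tested ADAM genes. Black diamonds are fitted changes with bars of 1 SE, and green symbols are differences between libraries of the same letter, on the log2(CPM + 1) scale. Adam19 lies between -2.05 and -1.52 for the 3 letters, and Adam15 and Adam12 are above 0 for all 3. Adam9, Adam10, Adam17 and Adam8 have symbols on both sides of 0.

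Levels of different genes were compared per length, as CPM per kilobase of exon. Adam9 was the most abundant member, with 159 ± 13.2 CPM per kilobase in forskolin libraries and 162 ± 11.03 in DMSO libraries (SD, n = 3 each). It made up 63.7% of the summed level of the members with forskolin and 59.7% with DMSO. Adam10 followed with 37.0 ± 3.42 CPM per kilobase with forskolin and 40.3 ± 2.22 with DMSO, and Adam17 with 25.1 ± 1.62 with forskolin and 27.3 ± 2.77 with DMSO. Ranges over the 6 libraries did not overlap between Adam9 and Adam10 or between Adam10 and Adam17. At the low end, Adam12 had 2.06 ± 1.27 CPM per kilobase with forskolin and 1.51 ± 0.907 with DMSO, and Adam8 had 0.806 ± 0.120 with forskolin and 1.04 ± 0.670 with DMSO. The ranges of these lowest members overlapped in both groups.

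The order of the members differed between the groups in the middle of the scale. Adam19 had 7.77 ± 2.69 CPM per kilobase in forskolin libraries and 26.4 ± 9.81 in DMSO libraries. Adam15 had 18.0 ± 0.705 in forskolin libraries and 12.4 ± 2.07 in DMSO libraries. In each forskolin library Adam19 was below Adam15, and in each DMSO library it was above it. The ratio of Adam19 to Adam15 was 0.431, 0.577 and 0.281 in forskolin libraries A, B and C, and 2.41, 2.29 and 1.52 in DMSO libraries A, B and C. Adam19 overlapped the range of Adam17 in the DMSO group and lay below it in the forskolin group. Its share of the summed level of the members was 3.11% with forskolin and 9.76% with DMSO. This order follows from the same Adam19 and Adam15 values as the differences above.

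**Figure D3:**
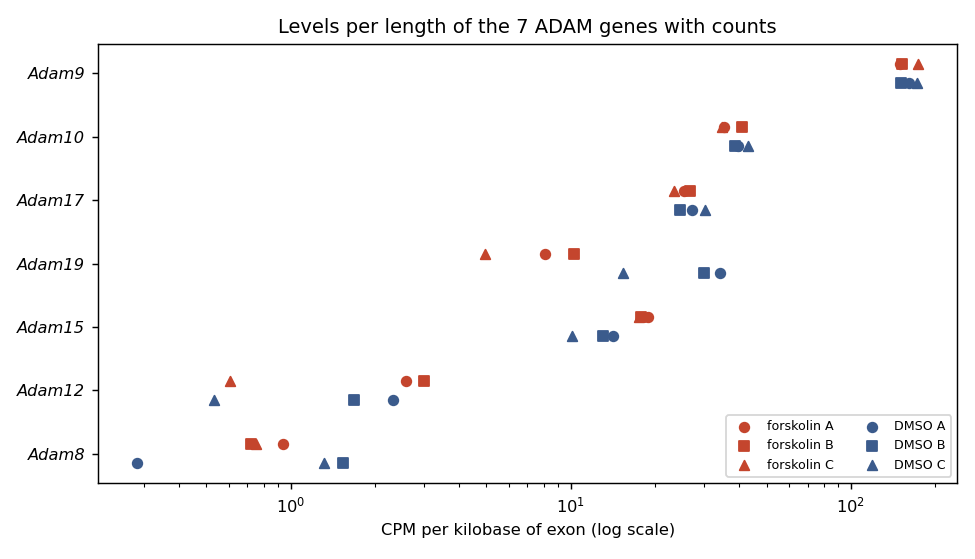
CPM per kilobase of exon (horizontal log axis) of the 7 ADAM genes with counts, with forskolin libraries above DMSO libraries in each row and 1 symbol per library. Adam9 is the highest in all 6 libraries, and Adam19 lies left of Adam15 with forskolin and right of it with DMSO.

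Across the 6 libraries, log2 CPM of the other tested members had Pearson correlations with Adam19 between -0.60 (Adam15) and 0.56 (Adam10). Among 8988 tested genes of at least 10 CPM on average, the 3 with the highest correlation with Adam19 were Scyl3 (0.994), Ankrd50 (0.994) and Inf2 (0.992), where Inf2 is a formin that acts on actin filaments. These are descriptions over 6 libraries that share the treatment and the depth of replicate C.

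Among the 25 other ADAM rows, 9 had no count, 9 averaged below 1 CPM and 7 reached 1 CPM. Of the 25, 5 were tested, and edgeR called none, with 1 (Adam30) at an unadjusted p under 0.05. Adam23, a member that binds integrins and LGI proteins and has no zinc site in its matched transcript, averaged 6.69 ± 1.41 CPM with forskolin and 5.46 ± 0.682 CPM with DMSO. Adam1a averaged 5.19 ± 1.57 CPM with forskolin and 4.73 ± 1.15 CPM with DMSO, and Adam22 averaged 2.77 ± 1.22 CPM with forskolin and 2.38 ± 1.44 CPM with DMSO. Adam21 averaged 1.05 CPM with forskolin and 1.21 CPM with DMSO, and Adam32 averaged 1.42 CPM with forskolin and 1.09 CPM with DMSO. Adam28 averaged 0.632 CPM with forskolin and 2.46 CPM with DMSO, where DMSO A, B and C had 0.437, 0.505 and 6.42 CPM. Adam30, known from mouse testis, had 28, 23 and 6 counts in forskolin libraries A, B and C, against 0 in all 3 DMSO libraries. Its groups did not overlap, and it was at least 4.20-fold higher with forskolin than the mean DMSO floor of 3 counts per library. It did not pass the threshold in edgeR (adjusted p = 0.0728), while DESeq2 and limma-voom called it higher.

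Lists of 86 partner genes covered the steps around ADAM shedding, and 70 of them were tested. Of these, 3 passed the test as higher (4.29%, against 2.22% of all tested genes), none as lower (against 0.572%), and 18 of 70 (25.7%) had an unadjusted p under 0.05, against 12.1% of all tested genes. DESeq2 called 4 higher and 2 lower, which added Notch1, Csf1 and Kitl. Limma-voom called 5 higher and 0 lower, which added Notch1 and Areg. Of all 12233 tested genes, DESeq2 called 409 higher and 144 lower, and limma-voom called 357 higher and 125 lower. The lists were chosen with earlier results of these data known, so nothing is read from these shares, here or for single lists below. Csf1, Kitl and Areg are also named here after their values were seen. The median log2 change of the 70 was 0.15.

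In the 17 tested genes for maturation and trafficking of ADAM proteins, edgeR, DESeq2 and limma-voom called none. In edgeR, 3 of the 17 (17.6%) had an unadjusted p under 0.05, against 12.1% of all tested genes. The most abundant was Snx9, a sorting nexin that binds ADAM9 and ADAM15 tails, with 348 ± 32.8 CPM with forskolin and 312 ± 18.8 CPM with DMSO (SD, n = 3 each). Pacs2, a sorting protein that keeps ADAM17 at the surface, had 263 ± 4.22 CPM with forskolin and 253 ± 40.6 CPM with DMSO. Among 4 tested inhibitors none was called by the 3 tools, and 0 had an unadjusted p under 0.05. Timp3, the natural inhibitor of ADAM17, had 333 ± 45.3 CPM with forskolin and 277 ± 117 CPM with DMSO, and Timp2 had 113 ± 26.3 CPM with forskolin and 102 ± 25.7 CPM with DMSO.

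Substrates came next. Of 7 tested EGF family ligands, edgeR and DESeq2 called none and limma-voom called Areg. In edgeR, 2 of the 7 (28.6%) had an unadjusted p under 0.05, against 12.1% of all tested genes. Ereg, which encodes epiregulin, had 588 ± 83.5 CPM with forskolin and 498 ± 25.2 CPM with DMSO (edgeR adjusted p = 0.578). Its groups did not overlap, as for 20.2% of all tested genes. The gap was narrow, with 528 CPM in forskolin A, the lowest of its group, and 526 CPM in DMSO C, the highest. Tgfa had 44.9 ± 9.33 CPM with forskolin and 53.8 ± 10.5 CPM with DMSO. Of the 7 tested Notch receptors and ligands, edgeR called 1 higher, where it called 2.22% of all tested genes higher. An unadjusted p under 0.05 was found in edgeR for 4 of these 7 (57.1%, against 12.1% of all tested genes). DESeq2 and limma-voom each called 2 of the Notch list, Dll1 and Notch1. The gene called by edgeR was Dll1, a Notch ligand that ADAM10 sheds, with 10.2, 12.1 and 16.3 CPM in forskolin libraries A, B and C, against 4.37, 1.92 and 2.03 CPM in DMSO libraries A, B and C. All 3 forskolin values were above all 3 DMSO values. The log2 change of Dll1 was 2.17 ± 0.47 (SE; edgeR adjusted p = 0.0367), and its adjusted p was over the threshold without forskolin A (0.109), forskolin B (0.140), forskolin C (0.0530), DMSO B (0.174) or DMSO C (0.0828). Notch2 had 349 ± 46.8 CPM with forskolin and 342 ± 29.9 CPM with DMSO. Notch1 had 318 ± 70.1 CPM with forskolin and 208 ± 12.3 CPM with DMSO, a log2 change of 0.61 ± 0.16 (SE; edgeR adjusted p = 0.0857).

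Of 27 tested other shed membrane proteins, 7 (25.9%) had an unadjusted p under 0.05 in edgeR, against 12.1% of all tested genes. Of the 27, 2 rose (7.41%, against 2.22% of all tested genes) and none was called lower by edgeR. DESeq2 and limma-voom called the same 2 higher, Tnfrsf1b and Cx3cl1, and DESeq2 also called 2 lower, Csf1 and Kitl. Csf1, a growth factor of macrophages, had 563 ± 34.4 CPM with forskolin and 806 ± 151 CPM with DMSO, a log2 change of -0.52 ± 0.16 (SE; edgeR adjusted p = 0.170). Kitl, the ligand of the Kit receptor, had 169.6 ± 8.28 CPM with forskolin and 227 ± 19.4 CPM with DMSO, a log2 change of -0.42 ± 0.11 (SE; edgeR adjusted p = 0.0752). For both genes the values of the groups did not overlap, as for 20.2% of all tested genes. Tnfrsf1b encodes TNF receptor 2, which ADAM17 releases in soluble form. It had 412, 421 and 347 CPM in forskolin libraries A, B and C, against 198, 201 and 197 CPM in DMSO libraries A, B and C. The groups were far apart, with very little spread in the DMSO libraries, and the log2 change was 0.99 ± 0.11 (SE; edgeR adjusted p = 7.44e-04), which held in all 16 alternatives. Cx3cl1 encodes fractalkine, a membrane-bound chemokine released by ADAM10 and ADAM17. It had 34.5, 32.1 and 31.0 CPM in forskolin libraries A, B and C, against 9.46, 15.2 and 12.8 CPM in DMSO libraries A, B and C. All forskolin values were above all DMSO values, with a log2 change of 1.38 ± 0.24 (SE; edgeR adjusted p = 0.0113). The call of Cx3cl1 was lost without forskolin A (0.0843), forskolin B (0.0581) or DMSO A (0.0637).

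Among the 7 tested genes of gamma-secretase, the protease that cuts the stubs left by shedding, none was called by edgeR, DESeq2 or limma-voom. In edgeR, 1 of the 7 (14.3%) had an unadjusted p under 0.05, against 12.1% of all tested genes. Ncstn, which encodes the subunit nicastrin, had 143 ± 4.22 CPM with forskolin and 131 ± 12.7 CPM with DMSO. Igfbp3, the 1 tested IGF-binding substrate, had 42.6 ± 1.76 CPM with forskolin and 29.4 ± 5.99 CPM with DMSO (log2 change 0.55 ± 0.20, SE; edgeR adjusted p = 0.257). RNA levels do not measure the amount or activity of any protease, or the amount of shed protein.

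**Figure D4:**
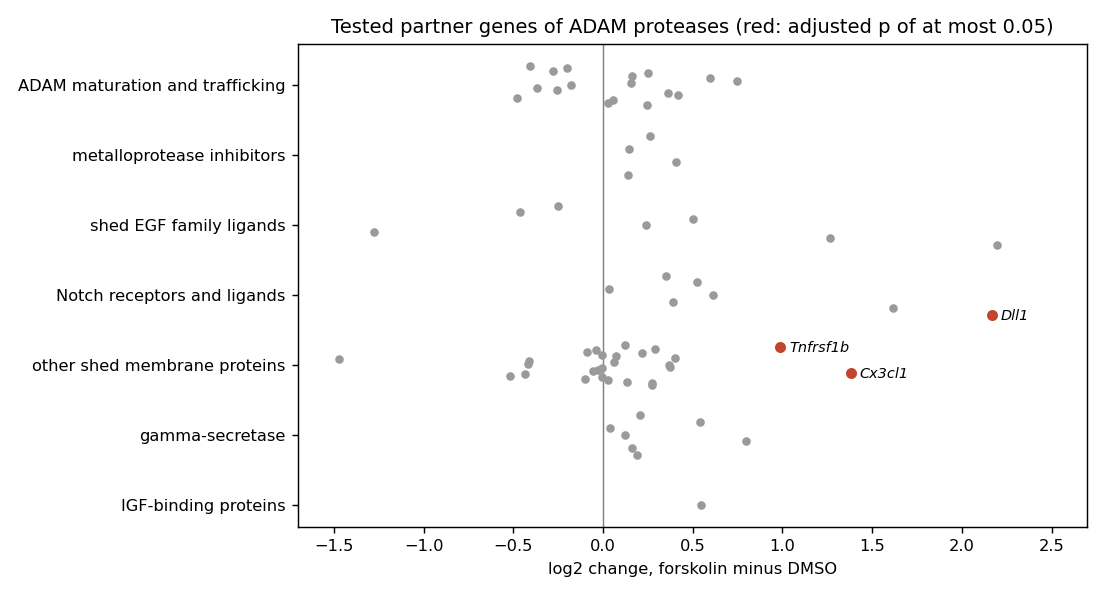
Log2 change, forskolin minus DMSO (horizontal axis), of the 70 tested partner genes by list. Each point is a gene, and red points passed an adjusted p of 0.05. The 3 red points are Dll1 at 2.17, Cx3cl1 at 1.38 and Tnfrsf1b at 0.99, and points farther from 0 that are grey did not pass the test.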

How the data were processed

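Polyadenylated RNA of 6 libraries was prepared with a NEBNext Ultra kit, per the labels. The submitters' processing notes name STAR, HOMER and the mm10 build; how reads were assigned to genes and with which annotation is not given in the sources used here. Per the labels and the table itself, the authors deposited expected counts per gene over exons, in steps of 0.5 (their origin is not given), with no normalization. They were rounded to whole numbers, with ties going to the even number. All 6 library columns matched a sample label.

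Genes were kept by filterByExpr (12233 of 24940), scaled by TMM and compared with edgeR's quasi-likelihood F test (robust fit, edgeR 4.0.16, R 4.3.3). Benjamini-Hochberg adjustment covered every tested gene, with calls at 0.05. The common biological coefficient of variation was 0.213. SEs are approximate (absolute log2 change over the square root of F). CPM is per TMM-scaled library size; sums of cell markers are per column total. Correlations use log2 CPM with a prior count of 2. The fit was also run on simulated counts with known changes, drawn with the common dispersion for every gene. The outcome of that run is not reported here, and no result rests on it.

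The members, gene lists and tests were chosen with earlier results of these data known. Named partner genes were all called genes of a list and, where fewer than 2 were called, the 2 most abundant. The value of 1 gene named by this rule is not reported here. Alternatives were DESeq2 1.42.0, limma-voom (limma 3.58.1), other scalings, filters and rounding, a replicate block, and leaving out libraries.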

Additional observations from a re-analysis of the deposited data

How the results depend on the processing

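edgeR called 272 genes higher and 70 lower, among the members 0 higher and 1 lower (Adam19), and among partner genes 3 higher and 0 lower. Counts that moved by over 1.5 times were as follows. With no filter, 463 genes were higher and 157 lower, and 7 partner genes higher and 1 lower. DESeq2 called 409 higher and 144 lower, and 2 partner genes lower. Limma-voom called 125 lower and 5 partner genes higher. With the letter as a replicate block, 455 genes were higher and 194 lower, and 7 partner genes higher and 2 lower. The labels do not say that letters pair the samples. Deviations from the group means correlated across genes at 0.0476 (A), 0.133 (B) and 0.1496 (C) between same-letter libraries, and forskolin A correlated best with DMSO B (0.103). Without both C libraries, 738 genes were higher and 491 lower, and 11 partner genes higher and 3 lower.

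Leaving out each library in turn gave 162 to 372 genes higher and 21 to 114 lower, 0 to 1 member lower, 1 to 6 partner genes higher and 0 to 1 lower. The member count was 0 without forskolin A, DMSO A or DMSO B. The causes of these differences were not tested. Adam19 kept its direction in all 16 alternatives (log2 change -1.99 to -1.52). So did Adam15 (0.41 to 0.63), Adam12 (0.12 to 0.87) and Adam10 (-0.20 to -0.040), none of them called in any alternative. The alternatives share libraries, so a kept direction is not separate support. Signs turned for Adam9 (-0.090 to 0.022) and Adam8 (-0.82 to 0.087) when single libraries were left out, and for Adam17 without both C libraries (0.00072). The depth of the C libraries limits genes of a few CPM, Adam8 and Adam30 among them.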
